A study of Homo sapiens with 6 samples.

Results

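Interferon and nucleic acid sensing genes were followed after an antisense knockdown of alpha satellite RNA in H9, a long-established line of human embryonic stem cells. The set has 47 genes out of 53719 rows in the deposited count table, and each of the 47 was found there by its symbol. The list names genes by function and its rule uses none of their values, but it was chosen with earlier results of these data known. They comprise 23 genes of nucleic acid sensing and signalling and 24 genes that interferon switches on. ADAR is listed among the 23, although it edits RNA and so limits sensing. A mean above 1 CPM (a read count scaled to a common library total) was reached by 26 of them, mostly sensing and signalling genes. Only 32 of the 47 had enough counts to be tested (20 sensing and signalling, 12 interferon-induced). None of the 32 changed past the adjusted threshold after the knockdown. Among the genes not tested, 9 were listed at 0, of which 7 lie wholly inside another gene.

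The study compared 3 libraries of H9 cells given a gapmer against alpha satellite RNA (abbreviated ALR, the transcript of the human centromere repeats) with 3 libraries given a control gapmer. Gapmers are chimeric oligonucleotides whose central DNA stretch recruits RNase H against the paired RNA. All cells came from the same line, grew in RSeT, sold as a medium for naive-like culture, and were taken for RNA 48 h after transfection. Both groups thus received an oligonucleotide by transfection, and no untransfected libraries were analysed, so a response shared by both gapmers cannot be told apart from the resting level of these genes. The labels do not say whether libraries a, b and c came from separate cultures, so p-values measure the spread between these libraries, which may be technical. The table counts genes and was not used to measure the satellite RNA itself, so the knockdown was not checked here.

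Cells detect RNA in the cytosol through the RIG-I-like helicases DDX58 (RIG-I), IFIH1 (MDA5) and DHX58 (LGP2), RNA in endosomes through TLR3, cytosolic DNA through MB21D1 (cGAS), and DNA with unmethylated CpG in endosomes through TLR9. Downstream of the cytosolic sensors, the adaptors MAVS and TMEM173 (STING) activate the kinases TBK1 and IKBKE. These kinases phosphorylate the transcription factors IRF3 and IRF7 and so induce interferon beta (IFNB1). Interferon binds the receptor IFNAR1 and IFNAR2, whose kinases JAK1 and TYK2 activate STAT factors that enter the nucleus with IRF9 and switch on the interferon-induced genes. Several sensors, among them DDX58, IFIH1, DHX58, TLR3 and EIF2AK2, are themselves interferon-induced. Pluripotent cells are known for a weak interferon response.

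The binding site of the STAT2 and IRF9 complex, the interferon-stimulated response element, is a sequence feature that the choice of genes did not use. Its core was searched as TTTCNNTTTC on both strands, overlapping matches included, in RefSeq promoter windows (GRCh38.p14) from 250 bases before to 50 bases after the gene start. A window was matched for 34 of the 47 genes. The core occurred in 15 of 18 interferon-induced genes (83.3%), in 3 of 16 sensing and signalling genes (18.8%) and in 1255 of all 35116 promoters (3.57%). The 3 in the second class were IFIH1, TLR3 and EIF2AK2. A match is a description of the letters and no evidence of binding. The stretches of 50 bases below, all upstream of the start, were picked to show the core in interferon-induced genes that the count table lists above 1 CPM (BST2, ISG15), under it (IFI6) and at 0 (IFIT1). They run 5′ to 3′ along the strand of the gene, with the core in capitals and overlapping or neighbouring matches also in capitals.
BST2, chr19:17405731-17405780, minus strand: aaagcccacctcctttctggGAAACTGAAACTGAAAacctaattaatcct
ISG15, chr1:1013364-1013413, plus strand: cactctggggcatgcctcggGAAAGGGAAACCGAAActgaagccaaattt
IFI6, chr1:27672319-27672368, minus strand: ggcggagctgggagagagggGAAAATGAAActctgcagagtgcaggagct
IFIT1, chr10:89392487-89392536, plus strand: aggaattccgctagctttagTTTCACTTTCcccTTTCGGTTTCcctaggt

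Over the 6 libraries the mean level was 10.3 CPM for BST2, 2.32 CPM for ISG15 and 0.328 CPM for IFI6. IFIT1 was listed at 0, but it lies wholly inside another gene, so no level can be given for it. CPM is not corrected for gene length, and these values are compared here only with the 1 CPM line.

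Library totals ran from 25087629 to 36576752 counts. Knockdown library a stood apart, with a count in 29678 rows against 25898 to 26788 in the other 5. Of 8 pluripotency markers 7 were above 1 CPM, with a summed level of 4622 to 5152 CPM in knockdown and 4606 to 4709 CPM in control libraries. Within that sum POU5F1 was at 134.0 ± 14.6 against 98.7 ± 12.9 CPM (SD, n = 3 each; edgeR adjusted p = 0.0948). Among the pluripotency markers the groups did not overlap for POU5F1 and LIN28A (higher in knockdown) and DPPA4 (lower), a separation that 18.9% of all genes tested showed. Of 8 naive state markers 6 were above 1 CPM (sum 68.1 to 75.4 against 66.9 to 71.7 CPM), but KLF17 was at 0.125 CPM and KHDC1L, which lies wholly inside another gene, was listed at 0. The summed level was 88.4 to 95.5 against 89.9 to 102.7 CPM for 7 fibroblast markers, nearly all of it COL1A1 and COL1A2, and 14.96 to 23 against 15.5 to 18.2 CPM for 7 immune cell markers, most of it NCAM1. It was 1.51 to 3.08 against 1.66 to 2.36 CPM for 5 trophectoderm markers. Of the immune markers PTPRC was at 0.330 CPM, CD3E at 0.0770 CPM and CD14 at 0.0385 CPM. In the other lists the groups were also apart for DNMT3L and PDGFRB, which the sums do not show. DNMT3L, a naive state marker, was lower in knockdown at 1.42 ± 0.076 against 2.31 ± 0.685 CPM (SD, n = 3 each, edgeR adjusted p = 0.258). PDGFRB, a fibroblast marker, was higher at 1.60 ± 0.255 against 0.707 ± 0.324 CPM (SD, n = 3 each, edgeR adjusted p = 0.188).

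A 0 in this table could not by itself be read as a silent gene. Of the 47 genes, 9 were listed at 0 in all 6 libraries: IRF9, IFNB1, IFIT1, IFIT2, IFIT3, IFITM1, OAS1, OAS2 and OAS3. SOX2, a defining factor of embryonic stem cells, was also listed at 0, and so was CHMP4A, a subunit of the membrane-remodelling ESCRT machinery that all cells use. In GENCODE release 29, SOX2 lies wholly inside the span of another gene, SOX2-OT, whose row held 9866 counts. This position was therefore measured for 18954 protein-coding rows matched to that annotation. Among the 1700 whose exon bases all lay inside the span of other genes, introns included, 1328 were at 0 in all 6 libraries (78.1%). Among the remaining 17254 rows, 607 were (3.52%).

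The share at 0 was 83.9% of 911 genes that lay wholly inside genes of the opposite strand alone, and 74.1% of 397 inside genes of the same strand alone. It was 88.3% of 633 genes that lay wholly inside other genes but shared no exon base with them. The library kit was directional per the labels' protocols, but how the counting treated strand and overlapping genes is not given in the sources used here, and neither is the annotation that was counted.

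**Figure D1:**
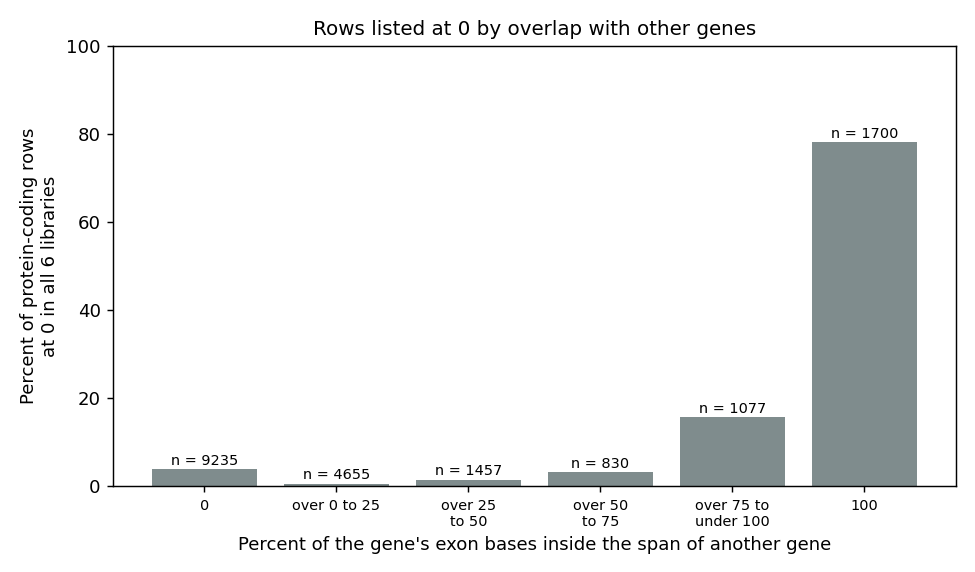
Bars give the percentage of protein-coding rows with 0 counts in all 6 libraries (vertical axis), by the percentage of a gene's exon bases that lie inside the span of another gene in GENCODE 29 (horizontal axis), with the number of genes above each bar. The share is 3.89% with no overlap, 15.7% for genes between 75% and 100% inside, and 78.1% for genes wholly inside.

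Of the 9 genes at 0, 7 lay wholly inside another gene. IFIT1, IFIT2 and IFIT3 lie on the plus strand of chromosome 10 inside LIPA, a gene of the opposite strand. Their positions in GRCh38 are chr10:89392546-89406486, chr10:89283694-89309276 and chr10:89327894-89340971. The LIPA row held 361 to 552 counts per library. OAS2 (chr12:112978395-113011723) and OAS3 (chr12:112938352-112973249), which make the second messenger that activates RNase L, lie inside the opposite-strand gene AC004551.1, and OAS1 (chr12:112906777-112933222) has 91.1% of its exon bases inside it. IRF9 (chr14:24161053-24166565) lies inside the same-strand gene AL136295.5, and IFITM1 (chr11:313506-315272) inside IFITM2. IFITM3 (chr11:319669-327537), which blocks entry of enveloped viruses, lies wholly inside genes of the opposite strand and held 1 or 2 counts in each library. For these genes neither a level nor a change can be given.

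IFNB1 was different in position: none of its exon bases lie inside another gene, and its row still held 0 counts in each library. A count of 0 allows up to 3 counts, or 0.0820 to 0.120 CPM, in a library of these sizes, and covers counting error only. The other interferon ligand rows were close to empty too. Over all 6 libraries together IFNA2 had 3 counts, IFNW1 had 2, IFNL1 had 7, and IFNL2 and IFNL3 had 1 each. IFNA1, IFNE, IFNK and IFNG were listed at 0, of which IFNE, IFNK and IFNG lie wholly inside other genes. Interferon alpha and lambda genes have near-identical copies, so their few counts are uncertain.

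A mean above 1 CPM was reached by 26 of the 47 genes, and each of the 26 was above 1 CPM in every library. These were 17 of the 23 sensing and signalling genes and 9 of the 24 interferon-induced genes. Among genes not wholly inside another gene, the counts were 15 of 20 (75%) and 9 of 17 (52.9%). The gap between the classes was thus smaller once genes wholly inside another gene were set aside. The 20 still include TLR9 and the 17 still include OAS1, with 99.97% and 91.1% of their exon bases inside other genes. Neither was above 1 CPM, and neither level is certain. The 12 genes with counts but at or under 1 CPM were DHX58, TLR3, TLR9, TMEM173, IFI6, IFI44, IFI44L, IFITM3, OASL, RSAD2, XAF1 and SAMD9.

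**Figure D2:**
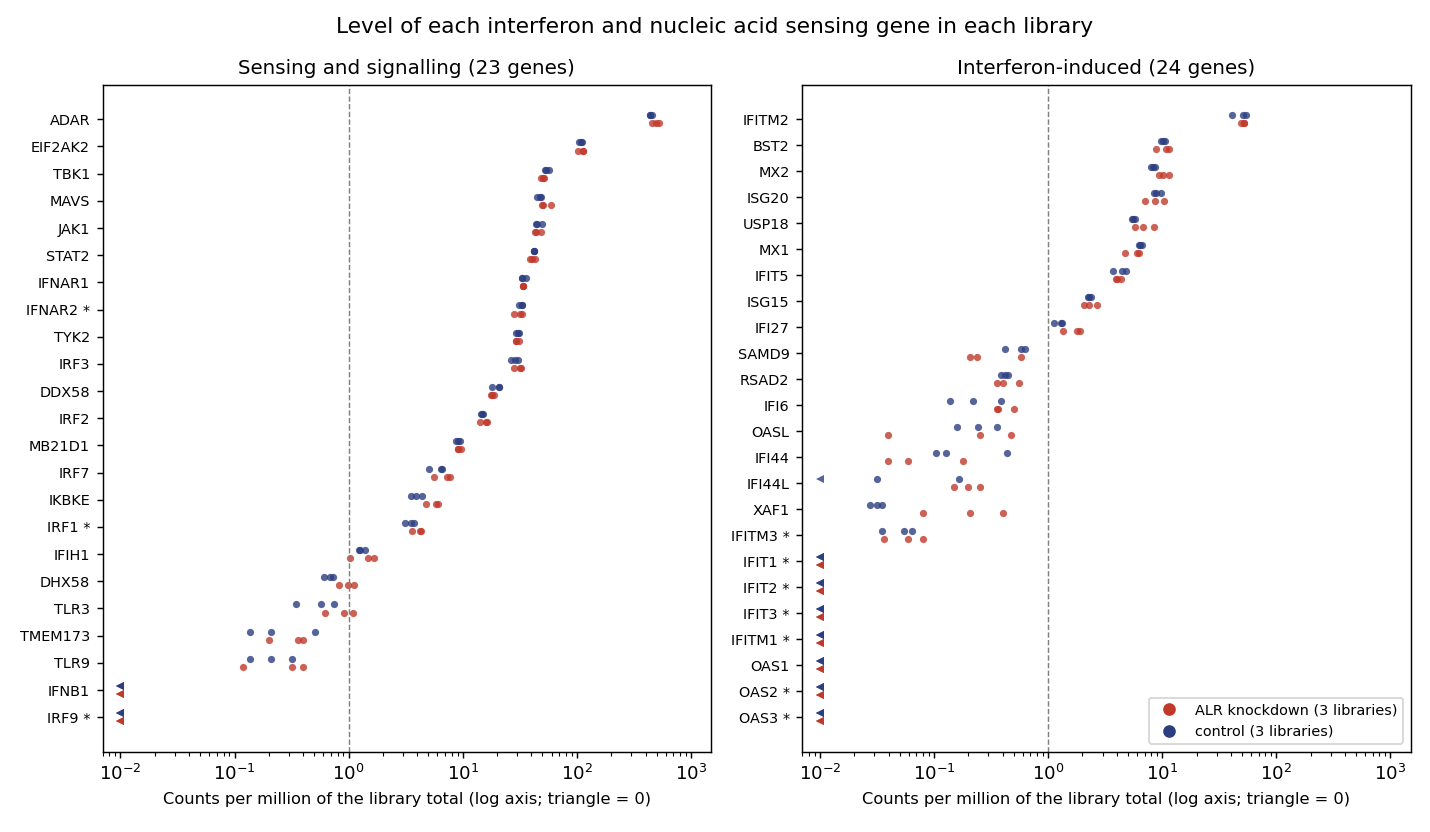
Each point is the level of a gene (rows) in a library, in CPM on a log axis, for 3 knockdown libraries (red) and 3 control libraries (blue); triangles mark 0, the dashed line marks 1 CPM and asterisks mark genes wholly inside another gene. Of the 23 sensing and signalling genes 17 lie to the right of the line, against 9 of the 24 interferon-induced genes, and 7 of the latter sit at 0.

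Levels of different genes were compared per kilobase of annotated exon, with the reserve that reads from introns may have been counted. On that scale ADAR, which edits adenosines in double-stranded RNA and so hides the cell's own RNA from IFIH1, was highest at 48.2 CPM per kilobase, and IFITM2 was next at 32.3. TBK1 stood at 10.97, EIF2AK2 (PKR, a kinase that halts translation on double-stranded RNA) at 10.1, and BST2 (tetherin, which holds budding virus at the cell surface) at 9.17. DDX58 was at 4.38 and MAVS at 4.25, whereas IFIH1 was at 0.263, TLR3 at 0.106 and TMEM173 at 0.0783 CPM per kilobase. DDX58, MAVS, TBK1 and IRF3 (7.86) were thus each higher per length than the endosomal RNA sensor TLR3 or the DNA adaptor TMEM173. The DNA sensor MB21D1 stood between them at 2.21. IFITM2 resembles its paralogs in sequence, and 22.8% of its exon bases are shared with exons of other genes. IFITM1 and AC136475.2 overlap its span, so how its reads were split from theirs is uncertain.

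The effect of the knockdown was tested with edgeR's quasi-likelihood test over all 19721 genes with enough counts, of which 32 are in the set (20 sensing and signalling, 12 interferon-induced). No gene of the 32 passed a Benjamini-Hochberg adjusted p of 0.05, against a background of 0.786% of all genes tested (155 genes), a share that would give fewer than 1 gene among 32. DESeq2's Wald test and limma-voom also gave 0 of the 32. The background itself was unsteady, at 26 genes without control library a and 1309 without knockdown library c, but the set had 0 in both fits. The smallest edgeR adjusted p in the set was 0.204. Unadjusted p-values under 0.05 were found for 2 of the 32, both higher in knockdown libraries, where 14.3% of all genes tested had such a p in either direction and 6.68% had it with a higher level (7.57% with a lower level). The median log2 fold change (knockdown over control) was 0.04 over the 32 genes and 0.02 over all genes tested. It was above 0 for 20 of the 32 (62.5%) and for 54.4% of all genes tested. The median was 0.06 over the 20 sensing and signalling genes and 0.03 over the 12 interferon-induced genes. The other 15 genes, the 9 at 0 among them, did not reach the count filter and were not tested. In bulk RNA, fewer expressing cells and less RNA per cell cannot be told apart.

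The intervals show which changes the data could still hold. For all 26 genes above 1 CPM, the 95% interval of the log2 fold change lay within 1 of 0, which is a 2-fold change either way, and ran at its extremes from -0.53 (IFIH1) to 0.98 (IFI27). For the 6 tested genes at lower levels the intervals reached from -1.76 to 1.81, and only that of RSAD2 stayed within a 2-fold change. Changes inside these intervals could not be told from 0 with 3 libraries a group. The SE was similar for ADAR (0.07, with 85534 counts over the 6 libraries) and IFNAR1 (0.07, with 6187 counts).

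**Figure D3:**
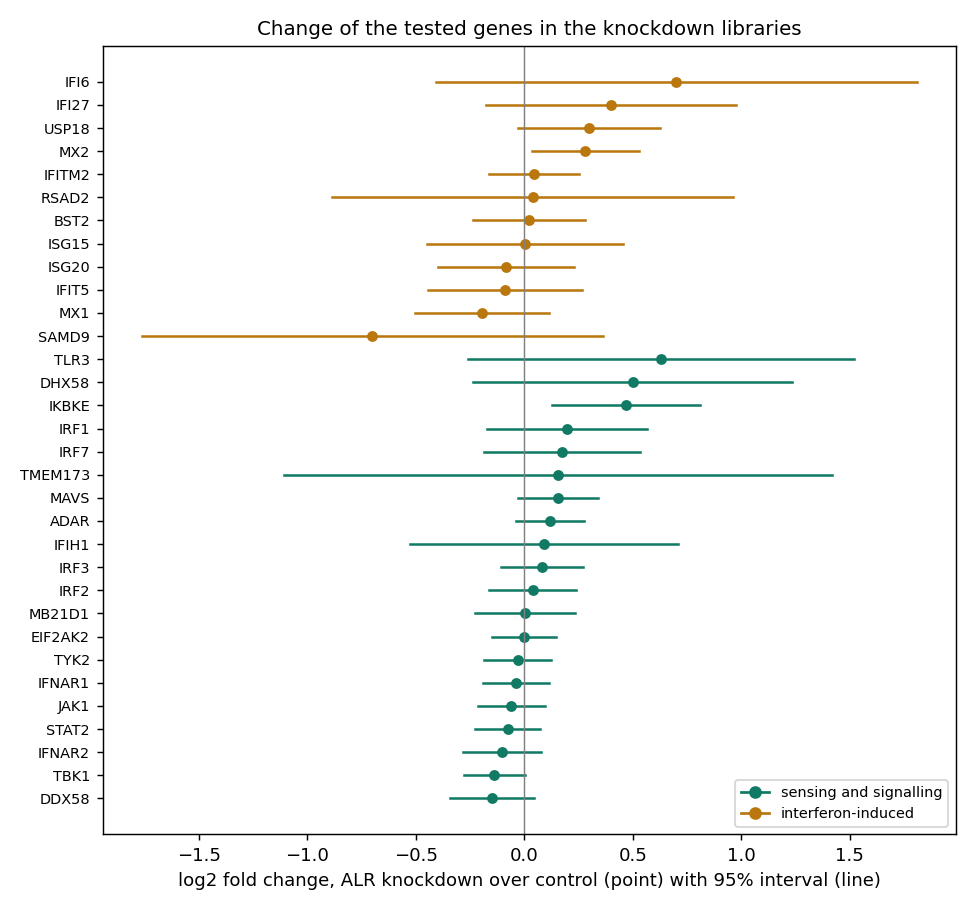
Points give the log2 fold change, knockdown over control, of the 32 tested genes, and lines its 95% interval from edgeR's quasi-likelihood fit, for sensing and signalling genes (green) and interferon-induced genes (orange). The intervals of all genes but IKBKE and MX2 cross 0, and the widest belong to TMEM173, IFI6 and SAMD9.

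Values are given in the order of libraries a, b and c throughout. Among RNA sensors, DDX58 had 18.2, 18.9 and 17.7 CPM in knockdown libraries and 18.0, 21.0 and 20.7 CPM in control libraries. The groups overlapped, since control library a lay among the knockdown values (log2 fold change -0.15 ± 0.09, SE; edgeR adjusted p = 0.480). EIF2AK2 had 113.0, 113.2 and 101.4 CPM in knockdown and 103.9, 110.4 and 107.7 CPM in control libraries. Its means were 109.2 ± 6.73 and 107.4 ± 3.28 CPM (SD, n = 3 each), and the interval of its log2 fold change ran from -0.15 to 0.14 (edgeR adjusted p = 0.994). The RNA editor ADAR had 498, 520 and 453 CPM in knockdown and 433, 457 and 440 CPM in control libraries. Only control library b reached the lowest knockdown value, but the difference did not pass (log2 fold change 0.12 ± 0.07, SE; edgeR adjusted p = 0.488).

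IFIH1 and DHX58 were sparsely counted. IFIH1 had 41, 56 and 26 counts in knockdown and 36, 44 and 45 counts in control libraries, which overlap (edgeR adjusted p = 0.918). DHX58, which lacks a signalling domain and tunes the other helicases, had 27, 28 and 28 counts against 21, 19 and 25. Its knockdown values all lay above its control values once scaled, but the log2 fold change was 0.50 ± 0.34 (SE; edgeR adjusted p = 0.539). TLR3 had 17, 37 and 23 counts against 10, 18 and 27, with overlapping groups (edgeR adjusted p = 0.520).

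The DNA sensor MB21D1 had 9.02, 9.11 and 9.73 CPM in knockdown and 8.67, 9.54 and 9.08 CPM in control libraries. The groups were interleaved (log2 fold change 0.003 ± 0.11, SE; edgeR adjusted p = 0.995). TLR9, which senses CpG DNA, had 4 to 11 counts per library and was not tested. All but a small part of its exons lie inside another gene, so its level is uncertain. TMEM173 had 11, 12 and 5 counts in knockdown and 6, 16 and 5 counts in control libraries, and the interval of its log2 fold change ran from -1.11 to 1.42 (edgeR adjusted p = 0.932). MAVS had 49.7, 59.1 and 50.7 CPM in knockdown and 48.8, 47.6 and 44.5 CPM in control libraries. All 3 knockdown values were higher on this scale, but the groups overlapped after TMM scaling, and the log2 fold change of 0.16 ± 0.09 (SE) did not pass (edgeR adjusted p = 0.440).

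The 2 kinases had fold changes of opposite sign. IKBKE had the smallest p of the set, with 6.01, 4.81 and 5.78 CPM in knockdown and 4.37, 3.86 and 3.53 CPM in control libraries. Every knockdown library lay above every control library, with a log2 fold change of 0.47 ± 0.16 (SE; 95% interval 0.13 to 0.81; edgeR unadjusted p = 0.0110, adjusted p = 0.204). Of its exon bases, 30.7% lie inside the span of opposite-strand annotation. C1orf147 and a microRNA gene overlap its span, and their reads could be mixed with its own. TBK1, its close relative, had 50.9, 48.3 and 51.6 CPM in knockdown and 52.7, 56.6 and 53.5 CPM in control libraries. All 3 knockdown values were lower, with a log2 fold change of -0.14 ± 0.06 (SE; edgeR unadjusted p = 0.0522, adjusted p = 0.354). Whether the 2 changes differ from each other was not tested.

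Of the transcription factors, IRF3 had 28.3, 31.8 and 32.7 CPM against 30.7, 26.6 and 28.8 CPM (log2 fold change 0.08 ± 0.09, SE; edgeR adjusted p = 0.714). STAT2 had 40.4, 42.9 and 39.2 CPM against 42.0, 42.5 and 42.4 CPM (-0.08 ± 0.07, SE; edgeR adjusted p = 0.665). Both overlapped between groups, and 19.4% of the exon bases of IRF3 lie inside the opposite-strand gene BCL2L12. IRF2, which competes with IRF1 for the same sites, had means of 15.5 ± 1.02 and 14.8 ± 0.271 CPM (SD, n = 3 each), IRF7 had 6.92 ± 1.15 and 6.05 ± 0.862, and IRF1 had 4.03 ± 0.386 and 3.47 ± 0.291 in knockdown and control libraries. Their edgeR adjusted p-values were between 0.647 and 0.891. IRF1 lies wholly inside other annotated genes, so its row may miss reads.

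No receptor gene or receptor kinase passed the test. IFNAR1 had 33.7, 33.7 and 33.5 CPM in knockdown and 33.2, 35.8 and 32.8 CPM in control libraries, with an interval of the log2 fold change from -0.19 to 0.11 (edgeR adjusted p = 0.850). JAK1 had 48.2, 43.7 and 43.0 CPM against 44.3, 44.5 and 49.1 CPM (log2 fold change -0.06 ± 0.07, SE; edgeR adjusted p = 0.754). IFNAR2 (log2 fold change -0.10) and TYK2 (-0.03) likewise overlapped between groups, and IFNAR2 lies wholly inside other genes. All 4 fold changes of this role were below 0, but the interval of each crossed 0. Over all genes tested, 8985 of 19721 had a fold change below 0.

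Among interferon-induced genes, MX2, a GTPase that restricts HIV, had 10.2, 9.32 and 11.5 CPM in knockdown and 8.36, 8.01 and 8.64 CPM in control libraries. The groups did not overlap, with a log2 fold change of 0.28 ± 0.11 (SE; 95% interval 0.04 to 0.53; edgeR unadjusted p = 0.0284, adjusted p = 0.287). MX1, its paralog against influenza virus, went the other way in mean, with 5.98, 6.29 and 4.74 CPM against 6.21, 6.60 and 6.37 CPM and overlapping groups (log2 fold change -0.19 ± 0.14, SE; edgeR adjusted p = 0.571). USP18, which removes ISG15 from proteins and damps receptor signalling, had 6.74, 5.76 and 8.41 CPM in knockdown against 5.51, 5.39 and 5.71 CPM. All 3 knockdown values were higher, but the difference did not pass (0.30 ± 0.15, SE; edgeR adjusted p = 0.398).

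ISG15, a ubiquitin-like protein and a common marker of an interferon response, had 2.28, 2.08 and 2.67 CPM in knockdown and 2.39, 2.26 and 2.21 CPM in control libraries. The control values lay inside the range of the knockdown values, and the interval of the log2 fold change ran from -0.45 to 0.45 (edgeR adjusted p = 0.997). IFITM2 had 51.7, 52.4 and 49.2 CPM against 50.9, 54.0 and 41.0 CPM (log2 fold change 0.05 ± 0.09, SE; edgeR adjusted p = 0.871). BST2 had 10.9, 11.5 and 8.89 CPM against 10.5, 9.73 and 10.1 CPM (0.02 ± 0.12, SE; edgeR adjusted p = 0.949). ISG20, a nuclease for RNA, had means of 8.67 ± 1.65 and 9.01 ± 0.706 CPM, and IFIT5 had 4.11 ± 0.246 and 4.29 ± 0.563 CPM (SD, n = 3 each), both with overlapping groups.

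The remaining interferon-induced genes had few counts. IFI27, which was above 1 CPM in every library, had 52, 60 and 34 counts in knockdown and 38, 41 and 41 counts in control libraries, which did not overlap once scaled (log2 fold change 0.40 ± 0.26, SE; edgeR adjusted p = 0.531). IFI6 had 10, 17 and 9 against 4, 12 and 8 counts, and SAMD9 had 16, 7 and 6 against 12, 18 and 23 counts. RSAD2 (viperin) had 11 to 14 counts in every library. XAF1 had 11, 7 and 2 counts in knockdown and 1 in each control library, too few to be tested. Its highest count was in knockdown library a, the library with the most rows counted, and the part of that library in the value was not tested. Of its exon bases 38.3% lie inside the opposite-strand gene PRAL. IFI44, IFI44L and OASL had 0 to 16 counts per library with overlapping groups.

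Over the set, groups did not overlap in 6 of the 32 tested genes after TMM scaling, where the share over all genes tested was 18.9%. The 5 higher genes were DHX58, IKBKE, IFI27, MX2 and USP18, and the lower gene was TBK1. The number of separated genes in the set was therefore that of the background.

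A further 106 genes of the same pathways were read from the same fit. They were listed by function, but with earlier results of these data known. Of these, 105 had a row, 77 were above 1 CPM and 83 were tested, and no gene passed an edgeR adjusted p of 0.05. With DESeq2's Wald test 1 gene did (LGALS3BP), and with limma-voom 0. An unadjusted p under 0.05 was found for 15 genes that were higher and 2 that were lower in knockdown libraries, where 6.68% of all genes tested had such a p with a higher and 7.57% with a lower level. The median log2 fold change of the 83 was 0.03. Among 35 other interferon-induced genes 28 were tested, and 7 had such a p, all 7 higher, beside the same 6.68% of all genes. LGALS3BP, a secreted glycoprotein, had the smallest p, with 18.5, 18.7 and 18.7 CPM in knockdown and 15.0, 14.0 and 12.7 CPM in control libraries (log2 fold change 0.40 ± 0.09, SE; edgeR adjusted p = 0.0756). The groups did not overlap, but the edgeR adjusted p missed the threshold. CXCL10 and CCL5, chemokines often used as markers of a response, and TRIM22 were listed at 0 and lie wholly inside other genes.

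Of 9 tested antigen presentation genes 3 had an unadjusted p under 0.05, all higher, where 6.68% of all genes tested were higher with such a p and 14.3% had one in either direction. HLA-E, a ligand of natural killer cell receptors, had 17.5, 18.5 and 19.1 CPM against 15.7, 12.5 and 13.8 CPM (log2 fold change 0.37 ± 0.10, SE; edgeR adjusted p = 0.134). Of 5 tested genes among other ligands, receptors and receptor kinases, JAK2, which serves the interferon gamma receptor, was lower at 18.2 ± 2.17 against 22.2 ± 1.32 CPM (SD, n = 3 each; edgeR adjusted p = 0.162). Among 9 other factors and feedback genes SOCS3, an inhibitor of JAK kinases, was at 8.84 ± 0.813 against 6.28 ± 0.982 CPM (SD, n = 3 each; log2 fold change 0.47; edgeR adjusted p = 0.166). Among the rest, the smallest edgeR adjusted p was 0.325 in 14 other sensors and adaptors (ZNFX1, -0.16), 0.345 in 9 nucleases and RNA decay factors (RNASET2, 0.65) and 0.375 in 9 NF-kB genes (ICAM1, -0.79), the values after each gene being log2 fold changes.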

How the data were processed

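Per the submitters' processing notes, Trimmomatic 0.39, STAR 2.7.8a, featureCounts and Subread were used with build hg38. The annotation, strand setting and handling of overlapping or multiply aligned reads are not given in the sources used here. The authors deposited raw read counts per gene symbol for 6 libraries, with totals of 25087629 to 36576752, which limits the precision of low rows. From them, edgeR 4.0.16 (R 4.3.3) tested knockdown against control over all rows: filterByExpr at its defaults (19721 genes), TMM scaling, quasi-likelihood fit with the group as its only term, two-sided, Benjamini-Hochberg, threshold 0.05. SE is the log2 fold change divided by the root of F. CPM values use library totals, and overlap of groups was read after TMM scaling. Alternatives used DESeq2 1.42.0 and limma-voom 3.58.1, other scalings and filters, a replicate block, and fits without each library. The procedure was also run on counts simulated from its own fitted spread. That run does not measure how steady the calls are in these libraries. Gene positions come from GENCODE 29 (all 47 genes matched). All 47 genes are described, with full statistics for those with an unadjusted p under 0.05 and the 2 most abundant of each role, and shorter values for the others. Of the pathway genes outside the set, the smallest p of each list is named. The genes and lists were chosen with earlier results of these data known. Libraries of the same letter were not treated as pairs (correlations of deviations -0.0109, 0.140 and -0.0104).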

Additional observations from a re-analysis of the deposited data

How the results depend on the processing

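No gene of the set passed an adjusted p of 0.05 in any of the 14 alternatives, whose smallest adjusted p for a gene of the set ranged from 0.132 (ADAR, edgeR without knockdown library c) to 0.574 (MX2, edgeR without control library c). The number above 1 CPM was 26 under total or TMM scaling and without each library, 28 above 0.5 CPM and 24 above 2 CPM. With only genes not wholly inside another gene, a choice made after seeing the data, it was 24 of 37. IKBKE kept a positive and TBK1 a negative fold change in all 14 alternatives. Over all genes, 155 calls became 536 with the DESeq2 Wald test, 1064 with no low-count filter, 393 with the replicate block, and 26 to 1309 when a library was left out (102, 61 and 1309 without knockdown library a, b or c, and 26, 42 and 42 without control library a, b or c). The cause was not tested. For pathway genes outside the set, 0 became 1 under DESeq2 (LGALS3BP), 4 with no low-count filter (HLA-E, JAK2, SOCS3, LGALS3BP) and 0 to 2 with a library left out (HLA-C and JAK2 without knockdown library c). The median log2 fold change of sensing and signalling genes was -0.000457 with a mean count of at least 50 and -0.0032 to 0.0603 with a library left out. That of interferon-induced genes was -0.0104 to 0.0537 with a library left out. Signs changed in these log2 fold changes near 0: MB21D1 (-0.00312 under DESeq2 size factors, -0.00325 under the DESeq2 Wald test, -0.0514 to 0.0336 with a library left out), EIF2AK2 (0.0252 by library size alone, 0.0157 by upper quartile, -0.0490 to 0.0280 with a library left out), BST2 (-0.0773 to 0.103), IFITM2 (-0.0663 to 0.122) and TMEM173 (-0.197 without control library c to 0.863 without control library b), the last 3 with a library left out. With the replicate block no gene of the set changed its call.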
